A study of Mus musculus with 4 samples.

Results

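Genes of G2 and M phase, the last stages of the cell cycle, were followed in cultured group 2 innate lymphoid cells (ILC2s) from mouse lung. They are 41 genes, taken by name from the 17187 gene columns of the deposited table of normalised read counts. They encode cyclins, kinases, kinetochore proteins, spindle and motor proteins, and factors of cytokinesis. Rcc2 was added to them because its difference between the groups had been seen earlier in these data, so its own values are a description and support nothing.

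The anti-CD226 group held 2 libraries of sorted lung ILC2s of BALB/c mice cultured for 18 hours with anti-CD226 antibody, which binds a costimulatory receptor of lymphocytes. The isotype group held 2 libraries of the same kind of cells cultured for the same time with an isotype control antibody. The treatment protocol names 5 µg/mL, and its wording does not settle whether this covers both antibodies. The series' design text instead describes treated mice, and the deposited table calls the controls PBS, while the groups here are those of the sample labels. The labels give no age and no genotype beyond the strain. They do not say whether replicates are separate mice or cultures, so each p-value reflects spread between libraries that may be technical only.

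Passage through the cycle is driven by cyclin-dependent kinases. CDK1 paired with cyclin A or B starts mitosis, and the anaphase-promoting complex ends it by marking cyclin B and other proteins for destruction. Most genes of this set are silent in resting cells and are switched on together before mitosis. The DREAM complex keeps them off through a promoter element called the CHR, and B-MYB and FOXM1 act through the same complex core to turn them on, with NF-Y bound at CCAAT boxes. ILC2s are known to divide when cytokines of the epithelium activate them.

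The promoters of the set carry these elements often. RefSeq promoters (GRCm38.p6, from 250 bases before to 50 after the transcription start) were matched for 36 of the 41 genes. The CCAAT box, read as CCAAT or ATTGG so that both strands count, was in 26 of 36 promoters (72.2%), against 39.6% of the 9124 promoters of all genes tested. At least 2 such boxes were in 18 of the 36, against 16.0% of promoters of all genes tested. The CHR, read as TTTGAA or TTTAAA on either strand, was in 28 (77.8%), against 19.2%. Both kinds stood together in 23 promoters (63.9%), against 8.03%, and neither in 5 (13.9%), against 49.2%. The 5 with neither were Rcc2, G2e3, Nuf2, Nusap1 and Tacc3. The RefSeq starts of Rcc2 and G2e3 lie inside their annotated genes, which begin at chr4:140700541 and chr12:51348061. Some starts of promoters counted with elements lie inside the annotated gene too, among them those of Kif2c, Ccnb1 and Cks1b. The Kif2c gene begins at chr4:117182639 on the minus strand, and the bases before that were not searched. For Rcc2 the bases before the annotated gene start were not searched. A match of letters is a description and no proof of binding, and its absence says only that these letters were not in that window. TTTGAA is TTCAAA on the other strand, TTTAAA is the same on both strands, and neighbouring elements may share letters at their ends.

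Promoters of 6 genes are printed to show how the elements are spaced. Rcc2, added to the set for its known difference, holds neither in its window, which lies inside the annotated gene. The other genes with neither had small log2 fold changes between the groups, 0.16 for G2e3, -0.10 for Nuf2, 0.15 for Nusap1 and 0.001 for Tacc3. A link between elements and differences was not tested. Each sequence is the 120 bases before the RefSeq start, 5′ to 3′ on the gene's strand, and capitals mark CCAAT boxes and CHR letters. The Top2a stretch is chr11:99024190-99024309 on the minus strand, and Mki67 is chr7:135716380-135716499 on the minus strand. Ccnb2 is chr9:70421555-70421674 on the minus strand, and Ttk is chr9:83834569-83834688 on the plus strand. Kif11 is chr19:37376262-37376381 and Rcc2 is chr4:140701353-140701472, both on the plus strand.
Top2a: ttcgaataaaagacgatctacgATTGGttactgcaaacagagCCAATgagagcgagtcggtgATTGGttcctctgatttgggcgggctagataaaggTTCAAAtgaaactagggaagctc
Mki67: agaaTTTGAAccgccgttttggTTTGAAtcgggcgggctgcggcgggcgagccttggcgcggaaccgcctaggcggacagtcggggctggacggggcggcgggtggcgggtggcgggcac
Ccnb2: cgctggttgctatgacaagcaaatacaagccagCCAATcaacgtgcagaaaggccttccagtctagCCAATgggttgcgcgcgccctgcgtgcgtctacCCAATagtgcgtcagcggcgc
Ttk: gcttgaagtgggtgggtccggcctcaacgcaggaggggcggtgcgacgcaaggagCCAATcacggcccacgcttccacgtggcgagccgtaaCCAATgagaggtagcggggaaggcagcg
Kif11: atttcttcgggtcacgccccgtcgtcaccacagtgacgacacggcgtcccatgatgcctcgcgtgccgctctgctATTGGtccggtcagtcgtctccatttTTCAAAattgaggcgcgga
Rcc2: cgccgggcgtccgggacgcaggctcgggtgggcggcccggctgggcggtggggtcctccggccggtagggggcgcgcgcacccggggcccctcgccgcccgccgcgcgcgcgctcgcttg
Over the whole promoter window, Top2a had 6 CCAAT boxes and 2 CHR elements, Mki67 had 3 and 2, Ccnb2 had 3 and 2, Ttk had 2 and 1, and Kif11 had 1 and 1.

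**Figure D1:**
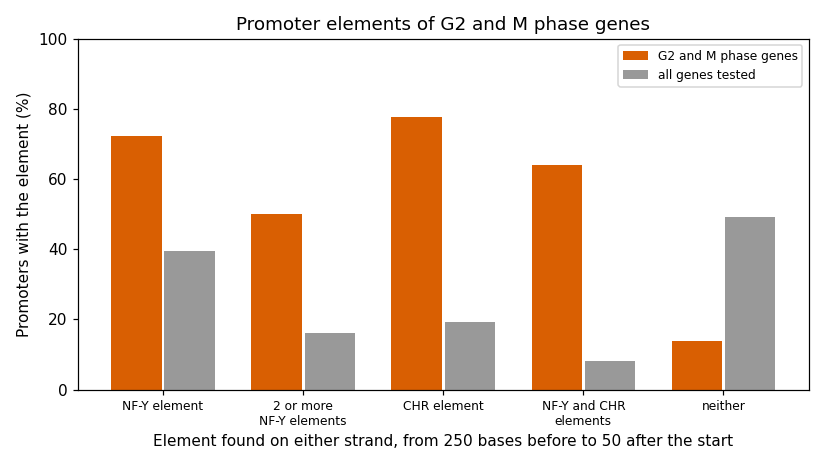
Share of promoters (%, vertical axis) holding each element on either strand, for the 36 genes of the set with a RefSeq promoter (orange) and for the 9124 promoters of all genes tested (grey). The NF-Y element is the CCAAT box. The set stands at 77.8% for the CHR element, against 19.2% of all genes tested, and at 13.9% for neither element, against 49.2%.

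Depth and identity set what can be read from the values. The estimated depth was 13521117 and 12473881 reads in anti-CD226 replicates 1 and 2, against 12433473 and 17846812 in isotype replicates 1 and 2. All 10 markers of ILC2s were present in every library, 5 with a higher and 5 with a lower mean in anti-CD226 and none past the test. The groups did not overlap in 6 of the 10, where 26.8% of all genes tested did not. The most abundant was Il5, a type 2 cytokine, at 85431 and 67864 normalised reads in anti-CD226 libraries and 95010 and 97655 in isotype libraries. Il13, another type 2 cytokine, had 2725 and 921 in anti-CD226 libraries, against 2773 and 3419 in isotype libraries. The least abundant, Areg and Il7r, ran from 614 to 889 and from 719 to 948. Of 15 macrophage markers, 11 were in the table and 7 were tested, 6 of them with a higher mean in anti-CD226. Of the 7, 4 did not overlap and 5 had an unadjusted p below 0.05 (limma), where 26.8% and 2.37% of all genes tested did. The summed level of the 11 was 595 and 1928 in anti-CD226 libraries, against 304 and 292 in isotype libraries. Chil3, Itgam and Itgax were at 0 in isotype replicate 2, and Mpeg1, a macrophage perforin, was at 0 in both isotype libraries. Chil3 had 16.5 and 784 in anti-CD226 libraries, against 19.9 and 0 in isotype libraries. The 4 that did not overlap, all higher in anti-CD226, were Mmp12, Itgax, Lyz2 and Cd68. Mmp12 had 168 and 678 in anti-CD226 libraries, against 34.3 and 2.32 in isotype libraries. Itgax had 14.4 and 46.3 in anti-CD226 against 1.11 and 0 in isotype libraries. Lyz2 had 8.24 and 51.8 in anti-CD226 against 3.32 and 0.773 in isotype libraries. Cd68 had 55.6 and 88.2 in anti-CD226 against 35.4 and 38.6 in isotype libraries. Csf1r, Apoe and Adgre1 were nearly level at few reads. Their means were 1.82, 12.3 and 4.71 in anti-CD226, against 2.05, 12.6 and 4.97 in isotype libraries. Of 9 T cell markers, 6 were in the table and 4 were tested, 1 higher and 3 lower. The summed level of the 6 was 3339 and 2241 in anti-CD226 libraries, against 3176 and 3706 in isotype libraries. Of 6 mast cell and basophil markers, 5 were tested, 2 higher and 3 lower. Of the 5, 4 did not overlap and 3 had an unadjusted p below 0.05 (limma), where 26.8% and 2.37% of all genes tested did. The summed level of the mast cell and basophil markers was 1007 and 1468 in anti-CD226 libraries, against 1094 and 940 in isotype libraries, mostly from Kit. Mcpt8, a basophil protease, had 15.4 and 18.7 in anti-CD226 libraries, against 34.3 and 34.8 in isotype libraries, and Gata2, a factor of mast cells and basophils, had 26.8 and 20.9 in anti-CD226 against 8.84 and 10.0 in isotype libraries. The summed level of the 41 genes was 128994 and 132871 in anti-CD226 libraries, against 126908 and 123555 in isotype libraries, and the part of RNA from other cell types in their values was not tested.

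The cells carried abundant transcripts of dividing cells in both groups. All 41 genes passed the filter on low values, a mean of 10 or more over the 4 libraries. Their means ran from 236 for Psrc1 to 9379 for Top2a, and 25 of the 41 lay above the 90th percentile of the 13010 genes tested. Per kilobase of transcript, 19 of the 41 lay above the 90th percentile. Summed, the set made up 0.927% and 0.966% of the signal in anti-CD226 replicates 1 and 2, against 0.924% and 0.896% in isotype replicates 1 and 2. Rcc2 sets the order of these shares. For the other 40 genes they were 0.879% and 0.923% in the anti-CD226 libraries, against 0.901% and 0.867% in the isotype libraries, and the groups overlapped. With Rcc2, the highest sum was 1.08 times the lowest. In bulk RNA, fewer dividing cells and less RNA per dividing cell cannot be told apart.

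**Figure D2:**
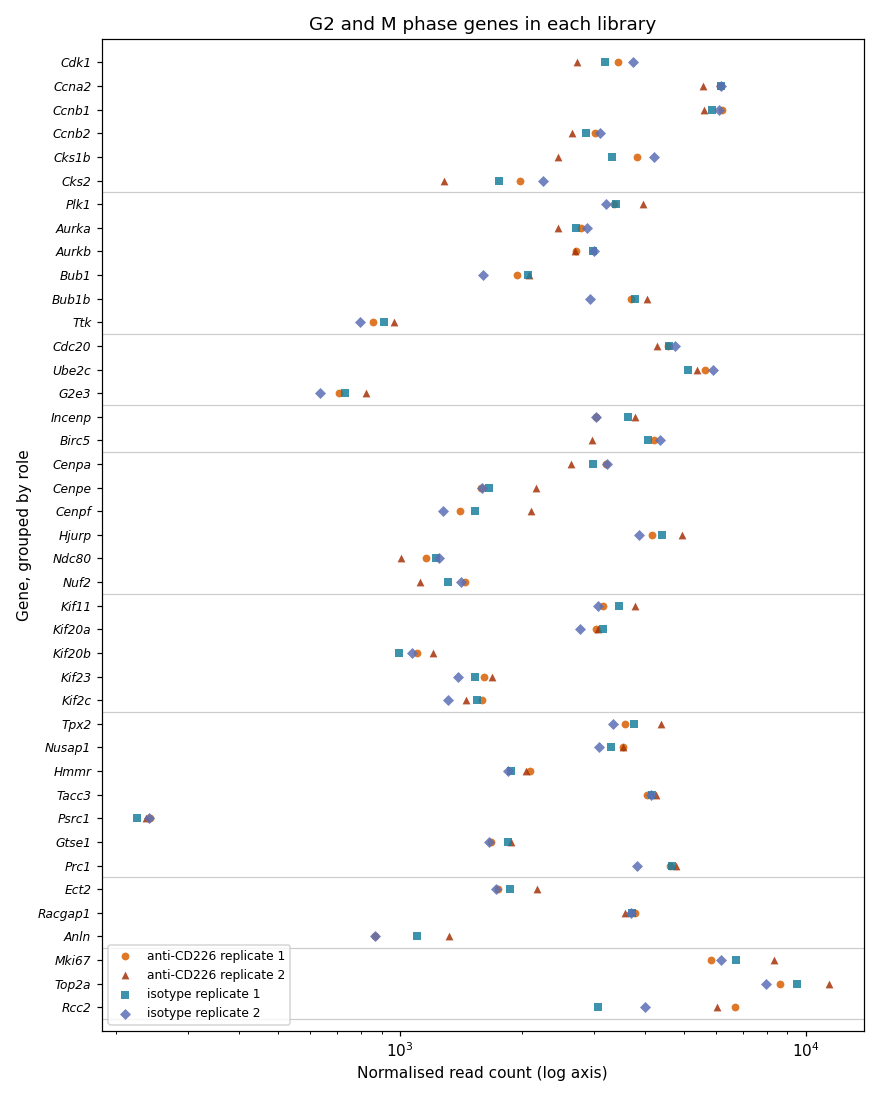
Normalised read count (log axis) of each of the 41 genes in the 4 libraries, with genes grouped by role from cyclins at the top to chromosome structure at the bottom, orange and red for anti-CD226 and blue for isotype. Most genes differ little between libraries, and Rcc2 is the gene whose anti-CD226 libraries, 6696 and 6035, stand farthest from the isotype libraries, 3064 and 4005.

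No gene of the set passed limma's adjusted p of 0.05 over all genes tested, where 0% of the 13010 genes did (adjusted p between 0.982 and 0.998 for the 41 genes). At an unadjusted p below 0.05 there was 1 gene, Rcc2, on the higher side and 0 on the lower, where 2.37% of all genes tested were, 1.55% higher and 0.815% lower. Of the 41 genes, 27 had a higher and 14 a lower mean in anti-CD226 (65.9% higher, where 51.1% of all genes tested were higher and 48.9% lower). The median log2 fold change was 0.08, against 0.01 over all genes tested. Without isotype replicate 2 there were 19 higher and 22 lower with a median of -0.0050, and without anti-CD226 replicate 2 the median was 0.015. The groups did not overlap in 9 genes, 5 higher and 4 lower, where 26.8% of all genes tested did not, 13.8% higher and 13.0% lower. With Rcc2 left out and all 4 libraries kept, 26 genes were higher and 14 lower, at a median of 0.06. In 8 of those 40 the groups did not overlap, 4 higher and 4 lower. Only Rcc2 differed by more than 1.5-fold, and 4 of the 41 differed by more than 1.2-fold, against 1.11% and 19.4% of the 7382 genes with a mean in the range of the set. The 95% interval of the fold change held 0 for 40 of the 41 genes. Leaving out Rcc2, the intervals reached down to a ratio of 0.545 and up to 1.77, these bounds being those of Cks2 and Cenpf. Standard errors ran from 0.155 to 0.242 on the log2 scale, so the size that could be detected differed between genes.

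**Figure D3:**
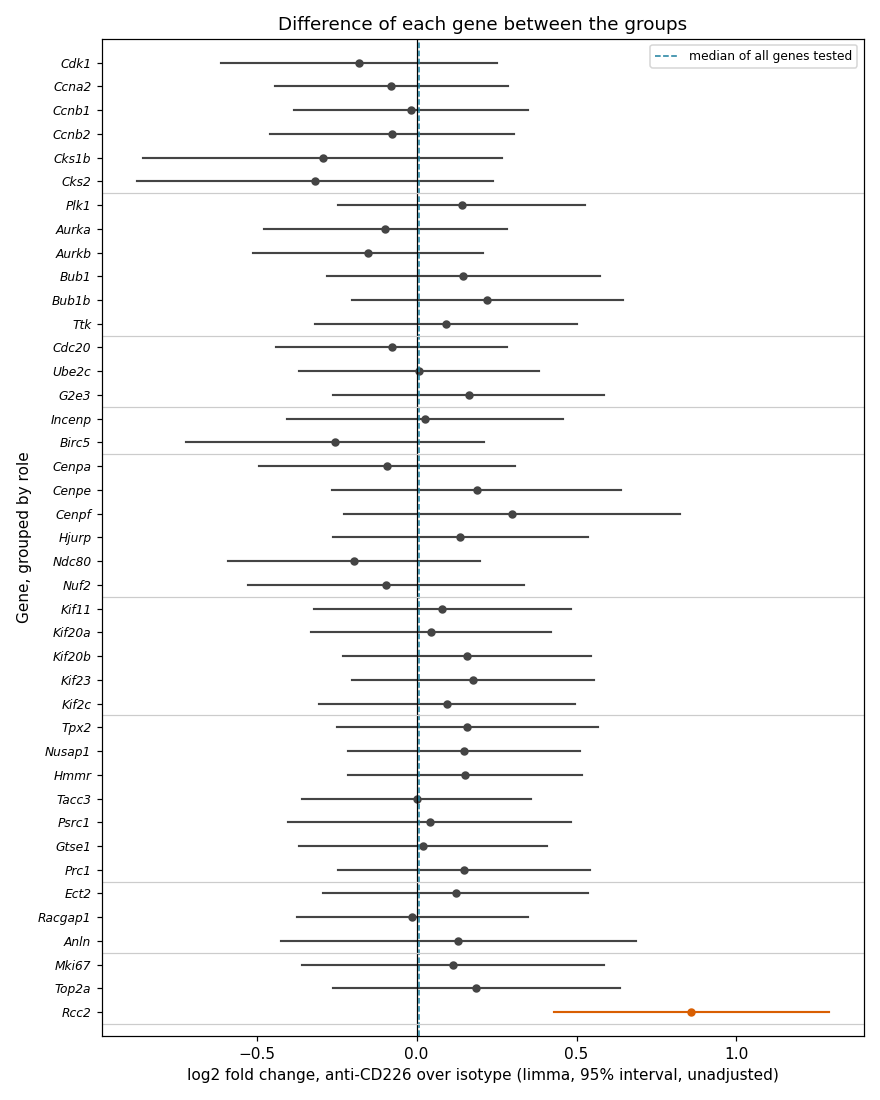
log2 fold change of each gene, anti-CD226 over isotype, with its unadjusted 95% interval from limma, genes grouped by role as in the plot of values. The interval of Rcc2 (orange) runs from 0.43 to 1.29, and the intervals of the other 40 genes all hold 0. The dashed line marks the median of all genes tested.

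Cyclins, CDK1 and the small CKS subunits had lower means in anti-CD226 in all 6 genes, where 48.9% of all genes tested did. Their median was -0.13 on the log2 scale, with none past the test. Cdk1, the kinase of mitotic entry, stood at 3440 and 2721 in anti-CD226 libraries, against 3197 and 3756 in isotype libraries (log2 fold change -0.18, standard error 0.19). The anti-CD226 replicate 2 library was the lowest of the 4, and the groups overlapped. Ccnb1, cyclin B1, was nearly level at 6213 and 5619 in anti-CD226 against 5871 and 6094 in isotype libraries. Ccna2, cyclin A2, which acts in S phase and in G2, had 6145 and 5560 in anti-CD226 against 6178 and 6168 in isotype libraries. Its anti-CD226 libraries were both lower, anti-CD226 replicate 1 only slightly.

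Cks1b and Cks2 encode closely related small proteins that bind cyclin-dependent kinases and help them dock on phosphorylated substrates. Cks1b had 3843 and 2445 in anti-CD226 libraries, against 3335 and 4231 in isotype libraries (log2 fold change -0.29, standard error 0.24). Cks2 had 1977 and 1285 in anti-CD226 libraries, against 1752 and 2252 in isotype libraries (log2 fold change -0.32, standard error 0.24). In both genes anti-CD226 replicate 2 was lowest and isotype replicate 2 highest, with anti-CD226 replicate 1 above isotype replicate 1. Without anti-CD226 replicate 1 the log2 fold changes were -0.62 for Cks1b and -0.63 for Cks2. Without anti-CD226 replicate 2 the values were 0.03 for Cks1b and -0.01 for Cks2. Ccnb2, cyclin B2, had a log2 fold change of -0.08.

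Mitotic kinases went both ways. Aurkb, the kinase of the chromosomal passenger complex that corrects faulty spindle attachments, had 2705 and 2689 in anti-CD226 libraries, against 2988 and 3002 in isotype libraries. The groups did not overlap, yet the difference was small (log2 fold change -0.15, limma adjusted p = 0.98). Bub1b, the checkpoint protein BUBR1, had 3715 and 4063 in anti-CD226 libraries, against 3787 and 2933 in isotype libraries (log2 fold change 0.22). Isotype replicate 2 was the low library there. Ttk, the checkpoint kinase MPS1 and the least abundant of the 6, had 859 and 965 in anti-CD226 against 914 and 797 in isotype libraries. The other three had log2 fold changes of 0.14 for Plk1, the Polo kinase of mitotic entry, 0.15 for Bub1, a checkpoint kinase, and -0.10 for Aurka, the Aurora kinase of centrosomes.

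Partners of the anaphase-promoting complex were close to level. Ube2c, the ubiquitin-conjugating enzyme of that complex, had 5645 and 5386 in anti-CD226 libraries, against 5106 and 5894 in isotype libraries (log2 fold change 0.01). Per kilobase of transcript it was the most abundant gene of the set, with a mean of 5696 normalised reads per kb. G2e3, a ubiquitin ligase of G2 phase, was the least abundant by that measure, with 106 per kb. It had 706 and 823 in anti-CD226 against 732 and 634 in isotype libraries. Cdc20, the activator of the complex at anaphase, had a log2 fold change of -0.08 with both anti-CD226 libraries lower.

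Among the passenger proteins that hold Aurora B at the centromere, Birc5, which encodes survivin, had 4210 and 2965 in anti-CD226 libraries, against 4082 and 4355 in isotype libraries (log2 fold change -0.26, standard error 0.20). Only anti-CD226 replicate 2 lay apart, below the other three. Without anti-CD226 replicate 1 the log2 fold change of Birc5 was -0.51, and without anti-CD226 replicate 2 it was -0.002. Incenp, the scaffold of the same complex, had 3038 and 3780 in anti-CD226 against 3649 and 3031 in isotype libraries, with each group split by its own replicates.

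Centromere and kinetochore genes split evenly, 3 higher and 3 lower. Cenpf, a large kinetochore protein with the longest transcript of the set, had 1401 and 2100 in anti-CD226 libraries, against 1528 and 1275 in isotype libraries (log2 fold change 0.30, standard error 0.23). Only anti-CD226 replicate 2 lay apart, above the others, and anti-CD226 replicate 1 lay between the isotype libraries. Without anti-CD226 replicate 1 the log2 fold change of Cenpf was 0.59, and without anti-CD226 replicate 2 it was 0.006. Cenpe, the kinesin that carries chromosomes to the spindle equator, had 1585 and 2162 in anti-CD226 against 1660 and 1590 in isotype libraries. Hjurp, the chaperone that loads the centromeric histone, was the most abundant of the 6 at 4184 and 4940 in anti-CD226 against 4416 and 3870 in isotype libraries.

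The subunits of the NDC80 complex, which grips microtubules, were on the lower side. Ndc80 had 1159 and 1004 in anti-CD226 libraries, against 1223 and 1249 in isotype libraries, without overlap (log2 fold change -0.20, limma adjusted p = 0.98). Its partner Nuf2 had a log2 fold change of -0.10 with overlapping groups, as did Cenpa, the centromeric histone, with -0.09.

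All 5 kinesin motors had higher means in anti-CD226, where 51.1% of all genes tested did, with a median log2 fold change of 0.10. Kif23, the motor of the central spindle, had 1608 and 1686 in anti-CD226 libraries, against 1532 and 1386 in isotype libraries (log2 fold change 0.18). Kif20b, a motor of cytokinesis, had 1102 and 1204 in anti-CD226 against 996 and 1070 in isotype libraries. Neither pair overlapped, and neither passed the test (limma, adjusted p = 0.98 each). Kif11, which pushes spindle poles apart, had 3153 and 3790 in anti-CD226 against 3469 and 3079 in isotype libraries, and its groups overlapped. Kif2c, a kinesin that shortens microtubules, and Kif20a, a motor of cytokinesis, had 0.10 and 0.04 on the log2 scale. The sign of Kif11, Kif2c and Kif20a turned in some fits that left out a library.

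The 7 genes of spindle assembly and microtubule binding had higher means too, where 51.1% of all genes tested did. Their differences lay between 0.001 and 0.16 on the log2 scale. Nusap1, which bundles spindle microtubules, had 3542 and 3540 in anti-CD226 libraries, against 3306 and 3085 in isotype libraries. Hmmr, a receptor for hyaluronan that also binds the spindle, had 2086 and 2044 in anti-CD226 against 1880 and 1839 in isotype libraries. Neither overlapped, as 26.8% of all genes tested did not, at a log2 fold change of 0.15 (limma, adjusted p = 0.98 each). Prc1, the crosslinker of the central spindle and the most abundant of the 7, had 4621 and 4776 in anti-CD226 against 4687 and 3837 in isotype libraries. Psrc1, a microtubule regulator and the least abundant gene of the whole set by mean count, had 242 and 236 in anti-CD226 against 224 and 240 in isotype libraries. Tpx2, the activator of Aurora A, had 0.16, and Tacc3, which stabilises spindle fibres, and Gtse1, a microtubule protein that also restrains p53, had 0.001 and 0.02. The sign of Tacc3 turned under 3 scalings, and that of Gtse1 and of Ube2c under 2 of them.

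Of the cytokinesis genes, Anln, the actin-binding anillin, had 868 and 1320 in anti-CD226 libraries, against 1103 and 866 in isotype libraries (log2 fold change 0.13, standard error 0.24). Each group held 1 low library, the pair at nearly the same value. Racgap1, a subunit of centralspindlin, was level with 3794 and 3575 in anti-CD226 against 3725 and 3710 in isotype libraries. Ect2, the exchange factor that activates RhoA at the division site, had a log2 fold change of 0.12.

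Mki67 and Top2a, the usual markers of dividing cells, had the same order of libraries at the top. Mki67, whose protein coats mitotic chromosomes, had 5823 and 8338 in anti-CD226 libraries, against 6732 and 6162 in isotype libraries (log2 fold change 0.11, standard error 0.20). Top2a, the topoisomerase that untangles sister chromatids, had 8638 and 11385 in anti-CD226 libraries, against 9510 and 7984 in isotype libraries (log2 fold change 0.19, standard error 0.19). In both, anti-CD226 replicate 2 was highest, isotype replicate 1 second, and the groups overlapped. Without anti-CD226 replicate 2 the values were -0.15 for Mki67 and -0.01 for Top2a.

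Rcc2, a regulator of chromosome condensation that also works with the passenger complex and with small GTPases, stood apart from the other 40 genes. Its gene spans 140700541 to 140723220 of chromosome 4, plus strand (GRCm38). It had 6696 and 6035 in anti-CD226 libraries, against 3064 and 4005 in isotype libraries, means of 6365 ± 467 and 3535 ± 665 (SD, n = 2 each). Both anti-CD226 libraries were above both isotype libraries, with a ratio of 1.81 between the groups. Its log2 fold change of 0.86 had a standard error of 0.19, and the gene ranked 9 of 13010 by unadjusted p. This rank is no support, since the gene was added for its known difference in these data. Rcc2 did not pass the adjustment over all genes (limma, adjusted p = 0.98). In the 4 fits that each left out 1 library, its log2 fold change ran from 0.67 to 1.05.

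A further list held relatives of Rcc2, small GTPases and partners of Ran. Of these 7 genes, 1 had a higher and 6 a lower mean in anti-CD226, where 48.9% of all genes tested were lower. The median was -0.05 on the log2 scale, with none beyond 1.2-fold and none past the test. Ran, the GTPase of nuclear transport and spindle assembly, had 20733 and 13157 in anti-CD226 libraries, against 18388 and 20624 in isotype libraries. Arf6, a GTPase of membrane traffic, had 4042 and 3227 in anti-CD226 against 3877 and 4009 in isotype libraries. Ranbp1, a partner of Ran, had 6127 and 5017 in anti-CD226 against 5427 and 6272 in isotype libraries. In all 3, anti-CD226 replicate 2 was the lowest library.

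**Figure D4:**
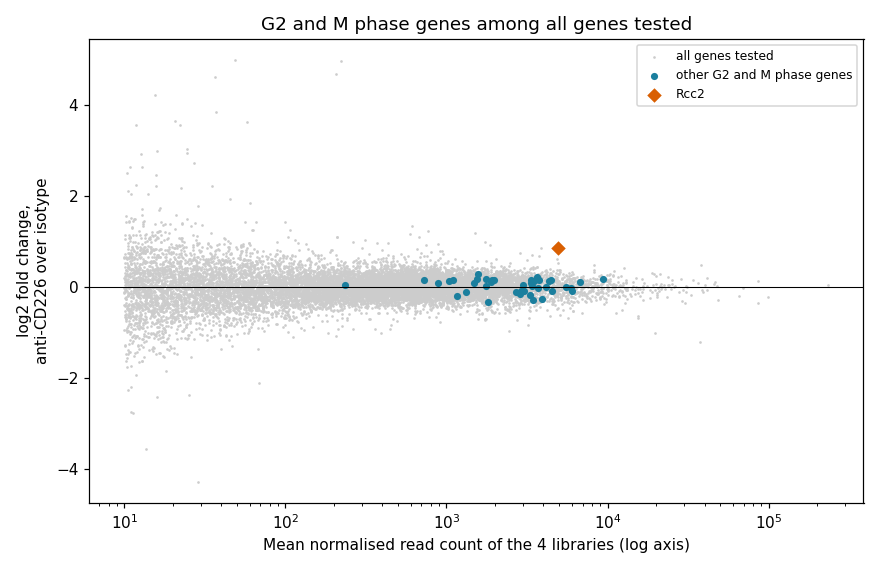
log2 fold change, anti-CD226 over isotype, against the mean normalised read count of the 4 libraries (log axis), for all 13010 genes tested (grey), the other 40 G2 and M phase genes (blue) and Rcc2 (orange). The 40 genes lie between -0.32 and 0.30, and Rcc2 lies at 0.86.

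Within the set, the values followed transcript length. Deviations are log2 differences of a library from the mean of the 4 libraries, so a gain in one library forces a loss in others. Lengths are those of the principal GENCODE M21 transcript, from 692 bases for Cks2 to 11130 for Cenpf. Over the 41 genes, which share the same libraries, Spearman's rho between length and deviation was -0.54 and 0.79 in the anti-CD226 libraries, replicate 1 first, against 0.06 and -0.70 in the isotype libraries. Over the 12737 genes tested with a length it was -0.37 and 0.54 in the anti-CD226 libraries, against 0.002 and -0.49 in the isotype libraries. The set thus had the order of libraries that all genes had.

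The short and the long genes of the set lay on opposite sides. The 20 shortest, up to 2965 bases, had a median log2 fold change of -0.08, with 8 higher and 12 lower means in anti-CD226. The 21 longest, from 3026 bases, had a median of 0.15, with 19 higher and 2 lower. Their median deviation was -0.03 and 0.18 in anti-CD226 replicates 1 and 2, against 0.01 and -0.16 in isotype replicates 1 and 2. For the short genes it was 0.04 and -0.08 in anti-CD226 libraries, against -0.001 and 0.07 in isotype libraries. Anti-CD226 replicate 2 was the highest library in 16 of the 21 long genes and the lowest in 12 of the 20 short ones.

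Not every gene kept to the order by length. In anti-CD226 replicate 2, 4 of the short genes were highest, among them Plk1, Ttk and Gtse1, and 2 of the long genes, Cdk1 and Racgap1, were lowest. Cdk1, given 4375 bases, had deviations like those of short genes, 0.08 and -0.26 in anti-CD226 libraries against -0.03 and 0.21 in isotype libraries. The annotation holds a second principal Cdk1 transcript of 1253 bases, and which of them these cells use was not tested. Rcc2, with 3999 bases, had deviations of 0.51 and 0.36 in anti-CD226 libraries, against -0.62 and -0.24 in isotype libraries. With each library's length trend over all genes removed, 21 genes of the set were higher and 20 lower. The median was then 0.005, and 35 of the 41 lay within 0.15 of 0, against 25 as deposited. Rcc2 kept 0.77 in that fit. The sign turned for Mki67 (-0.12), Kif11 (-0.04), Tacc3 (-0.03), Kif20a (-0.03), Incenp (-0.02), G2e3 (-0.01), Cenpe (-0.008) and Ccnb2 (0.005).

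**Figure D5:**
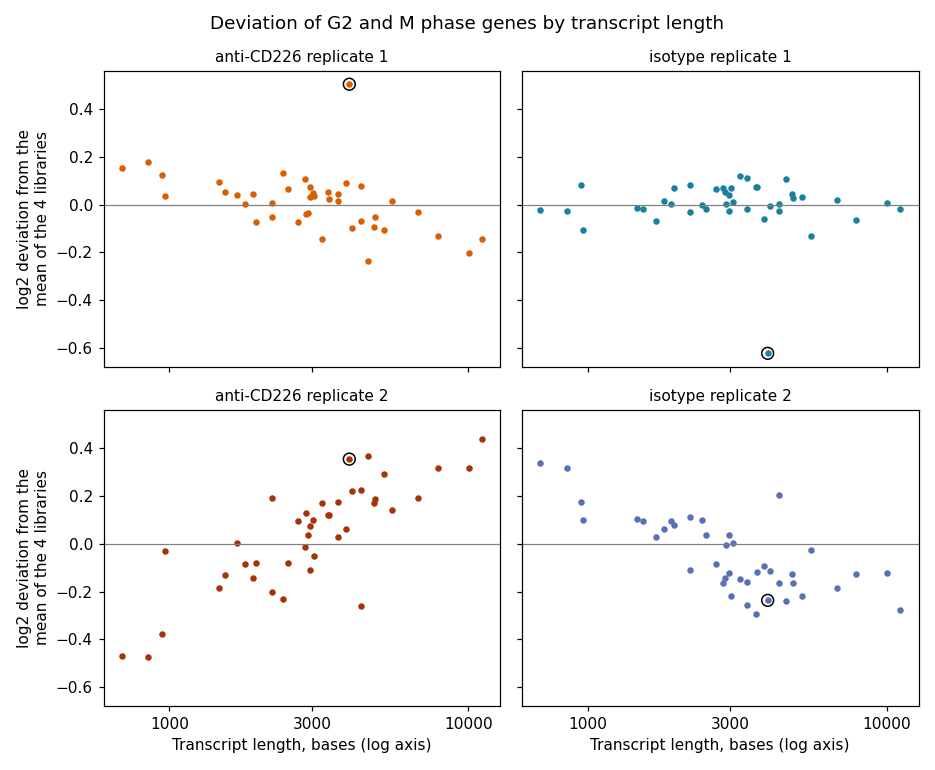
log2 deviation of each of the 41 genes from the mean of the 4 libraries, against transcript length in bases (log axis), with the anti-CD226 libraries on the left and the isotype libraries on the right, and Rcc2 circled. Spearman's rho is 0.79 in anti-CD226 replicate 2 and -0.70 in isotype replicate 2.

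Other genes of G2 and M phase were also tested. Of 52 such genes outside the set, all tested, 29 had a higher and 23 a lower mean in anti-CD226. Their median difference was 0.03 on the log2 scale, and none passed the test. Their summed signal was 0.790% and 0.739% in anti-CD226 libraries, against 0.788% and 0.767% in isotype libraries, lowest in anti-CD226 replicate 2, where the sum of the 41 genes was highest. Knl1, a kinetochore scaffold, had 1386 and 1761 in anti-CD226 against 1340 and 1209 in isotype libraries. Cit, citron kinase of cytokinesis, had 716 and 1025 in anti-CD226 against 592 and 765 in isotype libraries. The groups overlapped in Cit and not in Knl1.

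The transcriptional regulators above the set held 1 gene of 22 below an unadjusted p of 0.05, where 2.37% of all genes tested were. Of 22 regulators, 16 had a higher and 6 a lower mean, at a median of 0.05 on the log2 scale and with none past the adjustment. Rb1, the retinoblastoma protein that restrains E2F factors, had 3800 and 4661 in anti-CD226 libraries, against 2496 and 2671 in isotype libraries. Both anti-CD226 libraries were higher, with a log2 fold change of 0.71 and a standard error of 0.17 (limma, adjusted p = 0.98). E2f7, a repressor of the E2F family, had 753 and 1194 in anti-CD226 against 701 and 695 in isotype libraries. Rbbp4, a histone-binding subunit of DREAM, had 6694 and 3438 in anti-CD226 against 6492 and 6672 in isotype libraries, anti-CD226 replicate 2 alone being low.

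Inhibitors of cyclin-dependent kinases, G1 genes and S phase genes had none past the test either. Of 12 inhibitors and genes of cycle exit, 10 were tested, 7 higher and 3 lower. Cdkn2d, the inhibitor p19, had 1689 and 1514 in anti-CD226 libraries, against 1874 and 2003 in isotype libraries. Wee1, the kinase that holds CDK1 inactive, had 971 and 1105 in anti-CD226 against 993 and 868 in isotype libraries. Cdkn2b, the inhibitor p15, had 15.4 and 12.1 in anti-CD226 against 6.63 and 10.0 in isotype libraries, levels of few reads. Of 9 G1 genes tested of 10, 5 were higher and 4 lower. Ccnd2, cyclin D2, had 4915 and 5359 in anti-CD226 against 4195 and 4474 in isotype libraries. Cdk4, the kinase of D cyclins, had 5680 and 4411 in anti-CD226 against 5248 and 5720 in isotype libraries. Myc, a driver of cell growth, had 2003 and 2657 in anti-CD226 against 2066 and 2141 in isotype libraries.

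Of 26 S phase genes, 14 were higher and 12 lower, and the median difference was 0.03 on the log2 scale. Hells, a chromatin remodeller, had 2312 and 2682 in anti-CD226 libraries, against 2127 and 1952 in isotype libraries. Dtl, which directs destruction of licensing factors, had 1692 and 2237 in anti-CD226 against 1673 and 1565 in isotype libraries. Mcm3, a subunit of the replicative helicase, had 5827 and 7683 in anti-CD226 against 6291 and 4730 in isotype libraries. The summed S phase signal was 0.794% and 0.853% in anti-CD226 libraries, against 0.821% and 0.781% in isotype libraries, so the groups overlapped.

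Some values may hold reads of other genes. Exons of another gene on the other strand overlap 8 of the 41 genes, such as Exosc9 at Ccna2, Elovl1 at Cdc20, Tnnc2 at Ube2c and Cdc23 at Kif20a. Without the strand, reads of such pairs cannot be told apart. Ccnb1 has processed pseudogenes with at least 97.3% identity over about 1290 bases, of which Ccnb1-ps had 75.8 and 79.9 in anti-CD226 libraries, against 80.2 and 84.6 in isotype libraries. Cks2 has processed pseudogenes identical to it at 98.3% or more over 240 bases, so its values and those of Ccnb1 are uncertain by what the counting gave to the copies. No other annotated transcript matched Rcc2 at 95% identity over 150 bases or more. On the same strand, the microRNA gene Gm25951 overlaps exons of Rcc2, and the small nucleolar RNA gene Gm23451 overlaps exons of Top2a. Their part in the values was not tested.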

How the data were processed

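RNA of cultured lung ILC2s was sequenced as 4 libraries, 2 per antibody, from cDNA made with a low-input kit, per the labels' protocols. The submitters' processing notes name DESeq2, Partek 10.0, STAR 2.7.8 and build mm10, the assembly GRCm38. No source used here gives the counting tool, annotation or strand setting. The values deposited by the authors are a normalised signal, 1 per gene in each library and not divided by length. Between 66.4% and 73.8% of the values from 0.5 to 1000 steps were whole multiples of 1 step per library (tolerance 0.02 of a step), too few for a count model, so depth is the total divided by the step. Reads amplified from little RNA are not independent molecules. Of the gene columns, 211 were checked singly against the unit and the rest taken to be alike.

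Genes with a mean of 10 or more were tested (13010) on the log2(value + 1) scale, which all fold changes use. The two-sided test was limma 3.58.1 (R 4.3.3) with a trended prior, no replicate term, and Benjamini-Hochberg adjustment over all genes tested. Residual degrees of freedom were 2, and the prior added 5.81. An exact permutation test of 2 against 2 libraries cannot give a two-sided p below 0.333. The steps were tested on simulated data. The genes and lists were chosen with earlier results of these data known. Values in every library are given for the 14 genes of smallest p, the highest and lowest of each role, Mki67, Top2a, Cdk1, Ccnb1 and Rcc2, and 3 genes of smallest p per other list, of which 1 is not reported here. Lengths are of the longest principal transcript in GENCODE M21, found for 97.5% of genes. Near copies were sought with blastn. Alternatives covered the pseudocount, filter, scaling, variance prior, a replicate block, a length trend removed by loess and leaving out each library.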

Additional observations from a re-analysis of the deposited data

How the results depend on the processing

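Of the values of the 41 genes recomputed with other settings and all libraries, 477 kept their direction and side of the threshold. In 15 the sign changed. The block with crossed numbers is not in these counts. Settings of the filter, the variance prior and the replicate block leave a log2 fold change as it is, so they could not change a sign. With a library left out, 28 values changed sign. With the length trend removed, the median of the 41 genes was 0.0053 and that of all genes tested -0.0071, and the changed signs were Ccnb2 (0.0053), Cenpe (-0.0079), G2e3 (-0.010), Incenp (-0.023), Kif20a (-0.027), Tacc3 (-0.029), Kif11 (-0.036) and Mki67 (-0.12), giving 21 higher and 20 lower. With equal library totals Tacc3 was -0.0065, with upper quartile scaling Tacc3 was -0.023, Ube2c -0.016 and Gtse1 -0.0041, and with quantile normalization they were -0.017, -0.013 and -0.0025. The median of all genes tested was -0.00066 with equal totals, -0.017 with upper quartile scaling, -0.0031 with quantile normalization and 0.0024 with no filter. With the replicate number as a block, 20 genes in all and 0 of the 41 were past the threshold in limma. The labels state no pairing of replicate numbers, so the main test used no block. Same-numbered libraries deviated in opposite directions (r = -0.241 across 13010 genes), and crossed numbers give this value with its sign turned by construction. A block with crossed numbers, chosen after seeing the data, gave 61 genes in all and 1 of the 41, Rcc2 (adjusted p = 0.0012). Leaving out 1 library at a time gave 12 to 1633 genes in all and 0 to 5 of the 41 past the threshold, the highest counts without anti-CD226 replicate 1, where the spread comes from the other group alone. The count of lower means ran from 15 to 22, the median of the 41 from -0.0050 to 0.16 and the median of all genes tested from -0.0091 to 0.013. In these fits 20 of the 41 kept their sign, and the others ranged as follows on the log2 scale: Anln -0.17 to 0.43, Bub1 -0.039 to 0.33, Ccnb1 -0.090 to 0.055, Ccnb2 -0.17 to 0.015, Cenpa -0.23 to 0.050, Cenpe -0.036 to 0.41, Cks1b -0.62 to 0.033, Ect2 -0.038 to 0.28, Gtse1 -0.064 to 0.10, Incenp -0.13 to 0.18, Kif11 -0.052 to 0.21, Kif20a -0.051 to 0.14, Kif2c -0.021 to 0.21, Mki67 -0.15 to 0.37, Nuf2 -0.28 to 0.085, Psrc1 -0.0084 to 0.090, Racgap1 -0.056 to 0.029, Tacc3 -0.036 to 0.037, Top2a -0.013 to 0.39, Ttk -0.0053 to 0.19, Ube2c -0.096 to 0.11. The 2 libraries a group limit the precision, and the depth and step of isotype replicate 2 are the least certain.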
